A study of Bos taurus with 6 samples.

Results

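The cytosolic ribosomal protein genes were taken from the gene table of cultured bovine (Bos taurus) preadipocytes by their symbols, namely RPL or RPS followed by a number with an optional A, X or L and optional digits at the end, together with RPLP0, RPLP1, RPLP2 and RPSA. This rule took 81 of the 23475 genes listed, 49 of the large subunit and 32 of the small subunit. The cells, labelled adipocytes, were isolated from subcutaneous fat of calves and cultured in high-glucose DMEM with fetal bovine serum. The treated group was transfected with the bta-miR-484 agomir, a chemically modified double-stranded RNA that supplies the mature microRNA, and the control group with its agomir negative control (agomir NC). Total RNA was collected 48 h after transfection from 3 libraries of each group, and the values are FPKM, fragment numbers scaled by the length of the transcript and by how many fragments of that library were mapped. Values of single libraries are given in the order of replicates 1, 2 and 3 of a group. The sources do not say whether the libraries of a group came from separate cultures or calves, so p-values measure only the spread between these libraries, which may be technical. The level of miR-484 itself was not analysed here.

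The cytosolic ribosome is built from a small subunit, which reads the mRNA, and a large subunit, which joins the amino acids. Nearly every ribosomal protein stands in the ribosome as a single copy. Their mRNAs are among the most abundant of growing cells and are translated under control of the mTOR pathway, through a pyrimidine-rich sequence at the start of the transcript. The question was how each of these genes, and each subunit, stood in agomir cells against agomir NC cells.

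Of the 81 genes, 75 belong to the textbook set of structural ribosomal proteins, 44 of 46 for the large subunit and all 31 of 31 for the small subunit, and the other 6 are paralogs (RPL3L, RPL7L1, RPL10L, RPL22L1, RPL26L1 and RPS27L). RPL36A and RPL41 were not found under those symbols. A gene named RPL36A-2 in the table lies outside the rule. To be tested, a gene had to average 0.5 FPKM or more across the libraries, and 79 of the 81 did, 47 of the large and 32 of the small subunit. RPL10L, a testis paralog of RPL10, was listed at 0 in every library. RPL3L, the paralog of striated muscle, was listed at 0.167, 0.253 and 0 FPKM with the agomir against 0, 0.178 and 0 FPKM with the agomir NC.

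The cells carried mesenchymal genes. COL3A1, a fibrillar collagen and the most abundant gene of the preadipocyte and mesenchymal list, lay between 7428 and 7916 FPKM. PDGFRA, the receptor used to mark adipocyte progenitors, lay between 162 and 172 FPKM. DLK1 was at 0 in all 6 libraries and PI16 had a mean below the limit of 0.5 FPKM. The genes of mature fat cells were low, with ADIPOQ (adiponectin) between 0.0763 and 0.197 FPKM and PLIN1, a lipid droplet coat protein, between 0.974 and 1.56 FPKM, so that the label adipocyte was not matched by markers of a mature adipocyte. Skeletal muscle markers were near 0, and so were epithelial markers. In bulk RNA, fewer cells of a type and less RNA per cell cannot be told apart.

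The libraries did not stand level in these genes before any comparison of groups. The 81 genes summed to 49812, 46172 and 48800.2 FPKM in agomir replicates 1, 2 and 3 and to 49954, 47646 and 52233 FPKM in agomir NC replicates 1, 2 and 3. As a share of all FPKM of the library, they made up 13.5, 12.6 and 13.3% with the agomir and 13.5, 13.0 and 13.8% with the agomir NC in the same order. The share was 13.1% ± 0.503 against 13.4% ± 0.382 (mean ± SD, n = 3), a difference smaller than the spread within either group. A pair of libraries stood apart. Agomir replicate 2 was the lowest library for 52 of the 79 tested genes (65.8%) and for 14.7% of all genes tested. Agomir NC replicate 3 was the highest library for 61 of the 79 (77.2%) and for 19.4% of all genes tested. Agomir NC replicate 2 came next at the low end, as the lowest library for 20 genes. On the log2 scale, the median deviation of the 79 genes from their mean over the 6 libraries was 0.015, -0.088 and 0.010 in the agomir libraries and 0.036, -0.046 and 0.089 in the agomir NC libraries, so the replicates of a group differed by more than the groups did. Total FPKM was 368076, 367423 and 367089 in the agomir libraries and 369489, 365977 and 379361 in the agomir NC libraries, and read counts and depth are unknown.

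Levels differed widely among the tested genes, and the order was led by genes of either subunit. RPLP0, the base of the ribosomal stalk and a frequent reference gene, had a mean of 1972 FPKM over the 6 libraries. RPSA, the small subunit protein that was also described as a laminin receptor precursor, stood at 1947 FPKM and RPS2, at the mRNA entry channel, at 1868 FPKM. The ranges of these 3 genes over the libraries overlapped. RPL10, needed for the joining of subunits, and RPL13A followed at 1319 and 1306 FPKM, and their ranges overlapped too. A mean of 100 FPKM or more was reached by 76 of the 79 genes. The lowest tested genes were mostly paralogs, with RPS27L at 119, RPL38 at 106, RPL22L1 at 79.0, RPL7L1 at 29.9 and RPL26L1 at 20.8 FPKM. RPL38 was the only member of the textbook set among these 5.

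**Figure D1:**
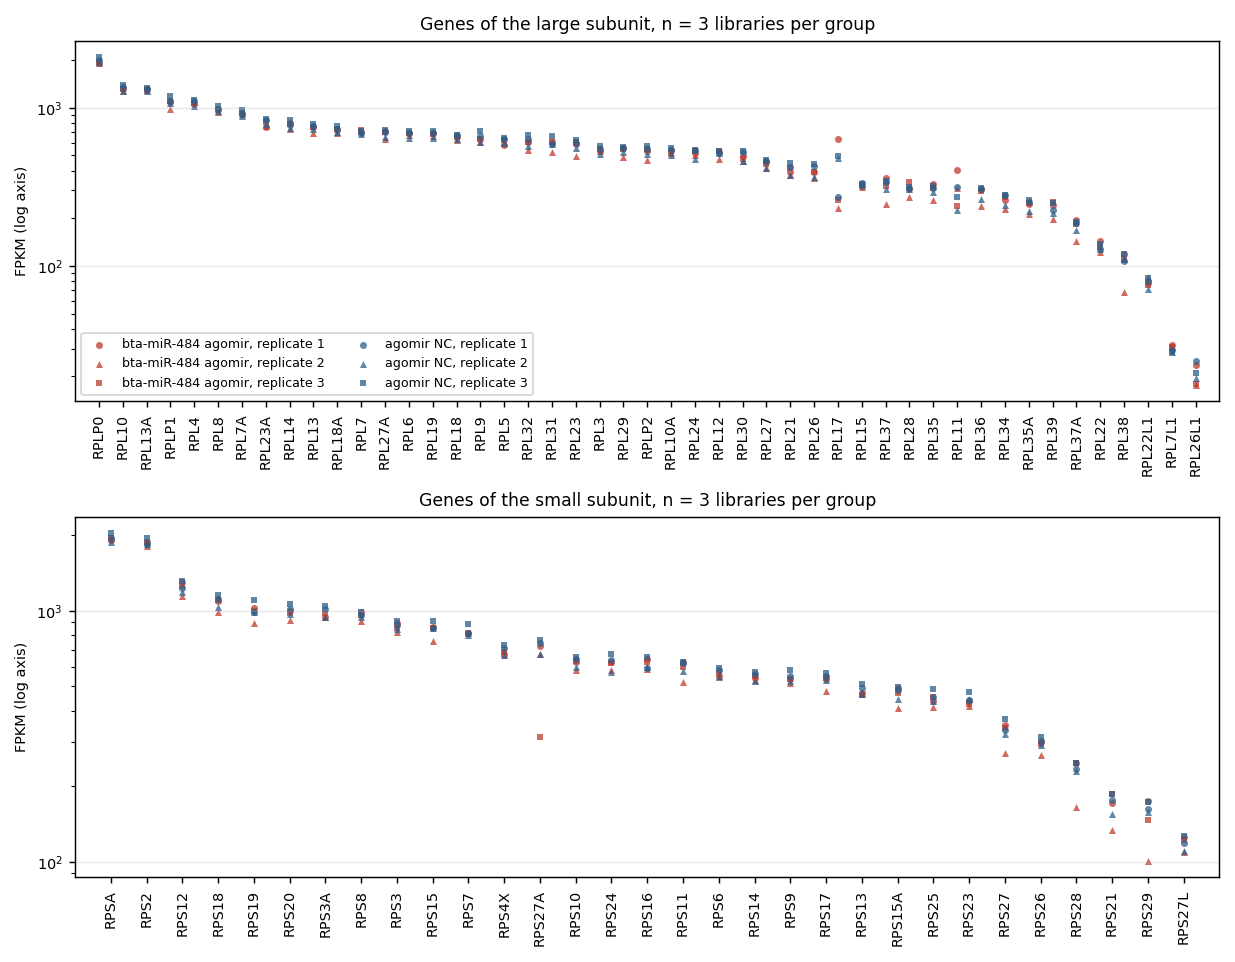
FPKM of 78 of the 79 tested ribosomal protein genes in each of the 6 libraries on a log axis, with the large subunit in the upper panel and the small subunit in the lower panel, each sorted by mean; red marks the bta-miR-484 agomir and blue the agomir NC, and the shape gives the replicate. Most genes form tight columns of 6 points, while RPL17, RPL11 and RPS27A spread widely and agomir replicate 2 sits lowest for RPL38, RPS28 and RPS29.

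Between the groups, the ribosomal protein genes differed little. Of the 79 genes, 1 was higher with the agomir at an unadjusted limma p under 0.05 (1.27%), against 6.63% of all 12422 genes tested. None was lower, against 4.31% of all genes tested. No member passed an adjusted p of 0.05, which 0.00805% of all genes, 1 gene, passed; the lowest adjusted p among the members was 0.420 (limma, Benjamini-Hochberg over all genes tested). All agomir values were above all agomir NC values in 1 gene, against 10.9% of all genes, and under them in 2 genes (2.53%), against 6.36%. As reported, these counts were below the background in each direction. That did not hold for lower genes in every setting. With a block for replicate number, 5 genes were lower (6.33%; RPL26, RPL26L1, RPL32, RPLP1 and RPS29), against 4.202% of all genes tested. Without agomir replicate 1, 6 genes were lower (7.59%; RPL17, RPL26L1, RPL37, RPL38, RPS27A and RPS29), against 4.0003% of all genes tested, and without agomir NC replicate 2, 12 were lower (15.2%), against 4.29%. In these 3 settings the share of the members was above the background.

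The fold changes nevertheless leaned to one side. The log2 fold change, agomir minus agomir NC on log2(FPKM + 0.5), was below 0 in 69 of the 79 genes (87.3%), against 44.9% of all genes tested. Its median was -0.053 with quartiles of -0.081 and -0.025, beside 0.013 over all genes tested. Among the 451 other genes averaging 100 FPKM or more, the median was -0.021 and 62.3% were below 0. The size of this lean depended on single libraries, though the median stayed below 0 with each of them left out. Without agomir replicate 2 the median was -0.0087, with 47 of the 79 below 0, against 46.6% of all genes tested. Without agomir NC replicate 3 it was -0.022 with 56 below 0, against 44.3%. Without agomir NC replicate 2 it was -0.088 with 76 below 0, against 47.0%. Agomir replicate 2 and agomir NC replicate 3 were also left out together, a choice made after seeing the data. By its construction this moves the median upward. The median was then 0.025 with 25 genes below 0, against 45.8% of all genes tested. The median was also nearer 0 after quantile normalization (-0.0090) and after cyclic loess normalization (-0.010), where 45 genes were below 0 in each case. In these settings 49.0% and 50.3% of all genes tested were below 0. The median was -0.070 under median-ratio scaling, with 75 members below 0, against 50.9%. Its direction thus held under each scaling but not without the pair of libraries.

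The size of change that could have been seen was small for most members. The standard error of the log2 fold change ran from 0.037 to 0.35 with a median of 0.053. The 95% interval lay inside a 1.3-fold change in either direction for 72 of the 79 genes and inside a 1.5-fold change for 74. The exceptions to the wider limit were RPL11, RPL17, RPL38, RPS27A and RPS29. In 68 genes the highest library was under 1.3 times the lowest. RPL13A was the steadiest gene, at 1322, 1295 and 1298 FPKM with the agomir against 1308, 1276 and 1337 FPKM with the agomir NC, a ratio of highest to lowest of 1.05. The median coefficient of variation within a group was 4.85% for the agomir and 4.94% for the agomir NC, beside 2.51% and 3.91% for those 451 other genes.

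**Figure D2:**
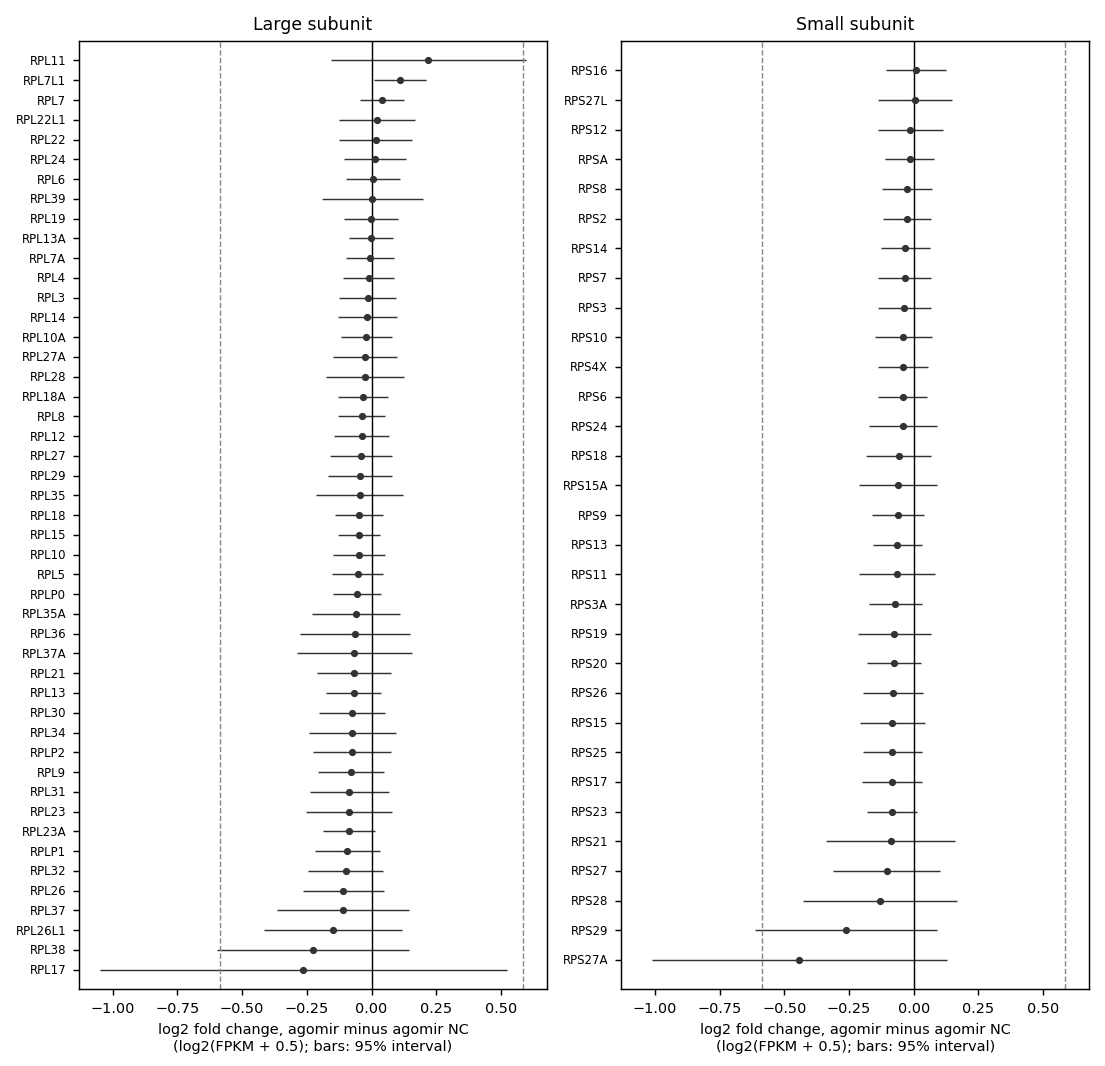
Log2 fold change of 78 of the 79 tested ribosomal protein genes, agomir minus agomir NC on log2(FPKM + 0.5), as points with bars for the 95% interval from limma (3 libraries per group), for the large subunit on the left and the small subunit on the right; dashed lines mark a 1.5-fold change. The interval of RPL7L1 alone lies to one side of 0, and 5 intervals, those of RPL11, RPL17, RPL38, RPS27A and RPS29, cross a dashed line.

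The subunits gave like values. The median log2 fold change was -0.047 over the 47 tested genes of the large subunit, 39 of them below 0, and -0.061 over the 32 of the small subunit, 30 of them below 0. Without agomir replicate 2 these medians were -0.0025 and -0.019. The summed FPKM of the large subunit over that of the small subunit was 1.188, 1.176 and 1.199 in agomir replicates 1, 2 and 3 and 1.183, 1.168 and 1.173 in agomir NC replicates 1, 2 and 3. Agomir replicate 2 fell among the agomir NC libraries in this ratio, so the groups overlapped (1.19 ± 0.0113 against 1.17 ± 0.00780, mean ± SD, n = 3). The gene higher at the unadjusted threshold was of the large subunit, and the 2 genes whose agomir libraries all lay below, RPS23 among them, were of the small subunit.

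Within the large subunit, the stalk recruits the translation factors. Its genes RPLP0, RPLP1, RPLP2 and RPL12 had a median log2 fold change of -0.066, and none of the 4 passed the unadjusted threshold in either direction. RPLP0 measured 1929, 1929 and 1940.4 FPKM with the agomir against 2004, 1939.5 and 2091 FPKM with the agomir NC. Agomir replicate 3 and agomir NC replicate 2 nearly coincided, and the log2 fold change was -0.057 (SE 0.041), turning to 0.0043 after cyclic loess normalization. RPLP1, an acidic protein that hangs on RPLP0, measured 1083, 977 and 1100.1 FPKM with the agomir against 1109.9, 1076 and 1183 FPKM with the agomir NC. The lowest value was agomir replicate 2 and the highest agomir NC replicate 3, and the log2 fold change was -0.093 (SE 0.055). RPLP2, its partner, showed the same order of extremes, from 464 to 573 FPKM.

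RPL5 and RPL11 carry the 5S rRNA into the large subunit and, when free, bind the p53 regulator MDM2. RPL5 was steady, at 585, 602 and 624 FPKM with the agomir against 633, 599 and 647 FPKM with the agomir NC. Its partner RPL11 was not, with 402, 312 and 241 FPKM with the agomir against 314, 225 and 271 FPKM with the agomir NC. The high library was agomir replicate 1 and the low libraries were agomir NC replicate 2 and agomir replicate 3, so the groups overlapped. RPL11 had the largest positive log2 fold change of the members, 0.22 (SE 0.17, 95% interval -0.16 to 0.60), and the exact permutation p was 0.5. The value became 0.035 when agomir replicate 1 was left out, 0.41 when agomir replicate 3 was, 0.33 when agomir NC replicate 1 was and 0.096 when agomir NC replicate 2 was. The unadjusted threshold was passed only when agomir replicate 3 was left out. The mRNAs of these partners thus varied unequally among the libraries. Of the 9 genes of the p53 response that were tested, none was lower at the unadjusted threshold, against 4.31% of all genes tested. At that threshold 1 was higher (11.1%, against 6.63% of all genes tested). That gene was ZMAT3, a p53 target encoding an RNA-binding protein, with a log2 fold change of 0.14 (SE 0.054). MDM2 gave -0.013 (SE 0.046) and CDKN1A, the cell cycle inhibitor p21, 0.012 (SE 0.042), while SESN2, a stress-induced inhibitor of mTORC1 signalling, gave -0.10 (SE 0.054). SESN2 passed the unadjusted threshold, as lower, in 4 other settings. These were median-ratio scaling, quantile and cyclic loess normalization, and the fit without agomir NC replicate 1.

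RPL17, a protein beside the exit of the peptide tunnel, was the most variable member. It measured 632, 231 and 259.5 FPKM with the agomir against 271, 483.9 and 498 FPKM with the agomir NC. A high level was seen in agomir replicate 1 and in agomir NC replicates 2 and 3, and a low level in the other 3 libraries, so that either group held libraries of either level. The highest library was 2.74 times the lowest, and the log2 fold change of -0.26 had a 95% interval of -1.05 to 0.52. Leaving out agomir replicate 1, 2 or 3 gave -0.72, 0.0070 and -0.078, and the first of these passed the unadjusted threshold. Leaving out agomir NC replicate 1, 2 or 3 gave -0.55, -0.13 and -0.11. No difference between the groups could be read from this gene. Other members along the tunnel were steadier. RPL4, whose loop lines the tunnel, lay between 1024 and 1119.7 FPKM, and RPL39, a very small protein of the tunnel wall, between 199 and 253 FPKM. RPL23A and RPL26, also at the tunnel exit, gave -0.087 (SE 0.045) and -0.11 (SE 0.070). Of the 9 tunnel genes, none passed the unadjusted threshold, and their median log2 fold change was -0.047.

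In the small subunit, 8 genes line the mRNA channel and the decoding site. None passed the unadjusted threshold, and their median log2 fold change was -0.070. RPS23, which holds the decoding centre, measured 439.6, 417 and 426 FPKM with the agomir against 439.6, 446 and 475 FPKM with the agomir NC. The groups did not overlap, but agomir replicate 1 and agomir NC replicate 1 nearly coincided. The exact permutation p was 0.1, the smallest that 3 against 3 libraries can give, and the log2 fold change was -0.085 (SE 0.043, adjusted p 0.514 in limma). RPS26, at the mRNA exit, gave -0.081 (SE 0.052).

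RPS6, the substrate of the S6 kinases downstream of mTOR, measured 552, 549.8 and 566 FPKM with the agomir against 581, 546 and 592 FPKM with the agomir NC. The groups overlapped, with a log2 fold change of -0.043 (SE 0.042, 95% interval -0.14 to 0.051). RPS25, which some viral and cellular mRNAs need for internal initiation, had a log2 fold change of -0.084 (SE 0.051), with values from 415 to 489 FPKM. RPSA gave -0.016 (SE 0.042) and RPS2 -0.026 (SE 0.041). After cyclic loess normalization these last 2 values were 0.045 and 0.034, on the other side of 0, and RPS6 gave 0.028 after quantile normalization. Changes this near 0 had no settled direction. The 95% interval of RPSA was -0.11 to 0.078 and that of RPS2 -0.12 to 0.066, inside a 1.3-fold change.

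RPS27A is made as a fusion of ubiquitin with a small subunit protein, and it had the most negative log2 fold change of the members. It measured 723, 675 and 314 FPKM with the agomir against 747, 674 and 765 FPKM with the agomir NC. Agomir replicate 3 alone was low, and the other agomir libraries lay within the range of the agomir NC libraries. The log2 fold change was -0.44 (SE 0.25, 95% interval -1.01 to 0.13, adjusted p 0.566 in limma), and -0.058 without agomir replicate 3. The same library was low in another ubiquitin gene. UBB, a polyubiquitin gene, measured 314, 308 and 106 FPKM with the agomir against 333, 325 and 349 FPKM with the agomir NC. As a percentage of the mean of the other 5 libraries, agomir replicate 3 held 43.8% for RPS27A and 32.4% for UBB. The low values were thus those of 1 library, and the other agomir libraries were not low in RPS27A. UBB was singled out with its values already in view. The ubiquitin genes share near-identical coding repeats, so the division of reads among them is uncertain.

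Further proteins of the ribosome lie outside the symbol rule. FAU, which encodes a ubiquitin-like protein fused to the small subunit protein eS30, gave -0.053 (SE 0.047). RACK1, a signalling scaffold on the small subunit, gave -0.016 (SE 0.039; 0.035 after cyclic loess normalization), with values from 989.9 to 1056 FPKM. Neither passed the unadjusted threshold.

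A further set of members was low in agomir replicate 2, and these were mostly genes of lower level. RPL38, known from its role in the translation of Hox mRNAs, measured 118, 68.4 and 110.3 FPKM with the agomir against 108, 111 and 119 FPKM with the agomir NC. RPS29 measured 175, 101 and 147 FPKM with the agomir against 163, 158 and 173 FPKM with the agomir NC. RPS28, near the mRNA exit, measured 248, 165 and 248 FPKM with the agomir against 234, 229 and 248 FPKM with the agomir NC. In each of these 3 genes agomir replicate 2 stood well below every other library. Against the mean of the other 5 libraries it held a ratio of 0.603 for RPL38, 0.618 for RPS29, 0.682 for RPS28, 0.738 for RPL37, 0.762 for RPS21, 0.782 for RPL37A and 0.786 for RPS27. Among textbook members, the 17 with a mean under 350 FPKM had a median ratio of 0.837 and the 58 above it 0.938, a limit chosen after the values were seen. Other genes of 100 to 350 FPKM, 359 in number, had a median ratio of 1.00, and the 92 others above 350 FPKM had 0.985. A ratio under 0.8, a limit also chosen after the values were seen, was found in this library for 7 of the 17 (41.2%), for 1.72% of the 58, for 0.557% of the 359 and for none of the 92. Across genes, Spearman's rho of level and ratio was 0.55 over the 75 textbook members and -0.14 over the 451 others, a description in which all points share 1 library. Over the same 75, rho was -0.41 and -0.31 in agomir replicates 1 and 3. It was -0.36, 0.15 and -0.28 in agomir NC replicates 1, 2 and 3. Each ratio is to the mean of the other 5 libraries, so these values depend on one another. The log2 fold change was -0.23 (SE 0.17) for RPL38, -0.26 (SE 0.16) for RPS29 and -0.13 (SE 0.13) for RPS28. Without agomir replicate 2 these values were 0.019, -0.040 and 0.066, so that 1 library set them. Transcript length was not used here, and its part in the result was not tested.

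**Figure D3:**
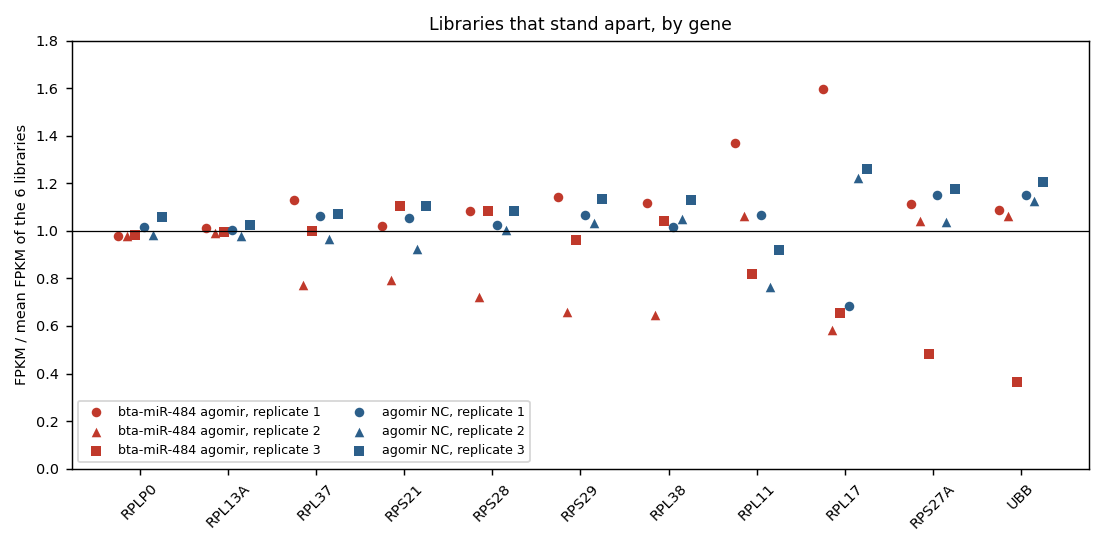
FPKM of 11 genes in each library divided by the mean of the gene over the 6 libraries; red marks the bta-miR-484 agomir, blue the agomir NC, and the shape gives the replicate. RPLP0 and RPL13A stay close to 1, agomir replicate 2 lies low for RPL37, RPS21, RPS28, RPS29 and RPL38, agomir replicate 3 lies low for RPS27A and UBB, and RPL11 and RPL17 scatter across both groups.

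The paralogs stood apart from their parent genes mainly by level. RPL7L1, a paralog of RPL7 that takes part in large subunit assembly, was the gene counted as higher. It measured 31.4, 30.7 and 30.9 FPKM with the agomir against 29.2, 28.4 and 28.5 FPKM with the agomir NC. All agomir values were above all agomir NC values. The means were 31.0 ± 0.365 and 28.7 ± 0.454 FPKM (mean ± SD, n = 3). Its log2 fold change was 0.11 (SE 0.045) at an unadjusted limma p of 0.0354 and an adjusted p of 0.420, and the exact permutation p was 0.1, the smallest possible. The unadjusted threshold was passed in 8 of the 18 other settings tried, and it was lost in the other 10, namely without agomir replicate 1, 2 or 3, without agomir NC replicate 2 or 3, without the pair of libraries, under median-ratio scaling, after cyclic loess normalization, without the variance trend and with a block for replicate number, while the value lay between 0.094 and 0.12 in all of them. As a percentage of RPL7 in the same library, RPL7L1 stood at 4.49%, 4.29% and 4.27% in agomir replicates 1, 2 and 3 and 4.21%, 4.19% and 4.02% in agomir NC replicates 1, 2 and 3. The parent RPL7 gave 0.040 (SE 0.037), from 678 to 723 FPKM. It passed the unadjusted threshold only after quantile normalization, at 0.081, and after cyclic loess normalization, at 0.085.

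RPL22L1, which can take the place of RPL22 in the ribosome, came nearest to the level of its parent among the paralogs of the rule. As a percentage of RPL22 it stood at 54.5%, 69.5% and 57.0% in agomir replicates 1, 2 and 3 and 62.8%, 56.2% and 60.6% in agomir NC replicates 1, 2 and 3. The group values of 60.3% ± 8.01 and 59.9% ± 3.35 (mean ± SD, n = 3) differed by less than the spread within a group. RPL26L1 stood at 5.17% ± 0.723 and 5.31% ± 0.568 (mean ± SD, n = 3) of RPL26 for the agomir and the agomir NC. RPS27L, a p53-induced paralog of RPS27, stood at 37.4% ± 2.75 and 34.6% ± 0.784 (mean ± SD, n = 3) of RPS27 for the agomir and the agomir NC, with the highest share in agomir replicate 2, where RPS27 was low. Outside the rule, RPL36AL stood at 87.6% ± 2.56 and 80.1% ± 6.52 (mean ± SD, n = 3) of RPL36A-2. A gene listed as RPS4Y1 stood at 7.45% ± 0.832 and 7.67% ± 0.363 (mean ± SD, n = 3) of RPS4X. Of the 6 paralogs tested by the fixed list, which holds genes beyond the rule, 1 was higher (16.7%, against 6.63% of all genes tested). None was lower, and the median log2 fold change was 0.013. Reads of near-identical copies can be divided between a paralog, its parent and processed pseudogenes, so these shares are uncertain.

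Of the other members among the 6 most negative and the 6 most positive values, RPL26L1 gave -0.15 (SE 0.12), with 23.5, 17.8 and 17.8 FPKM with the agomir against 25.1, 19.4 and 21.0 FPKM with the agomir NC. Its value was -0.28 without agomir replicate 1, where the unadjusted threshold was passed, and -0.045 without agomir NC replicate 1, where it was not. The threshold was also passed with a block for replicate number. RPL22L1 gave 0.020 (SE 0.065), RPL22 0.015 (SE 0.063) and RPL24 0.013 (SE 0.053). Each of these 4 values was smaller than 1.5 times its standard error. RPL22 and RPL24 turned negative under median-ratio scaling. RPL3, whose muscle paralog was nearly absent, gave -0.014 (SE 0.049) and RPS4X -0.041 (SE 0.044), and both turned positive after cyclic loess normalization.

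Many ribosomal protein genes carry small nucleolar RNAs, which guide the modification of rRNA, in their introns. In the RefSeq annotation of ARS-UCD2.0, 27 of the 81 members (33.3%) held at least 1 snoRNA gene within their span, against 229 of the 11245 protein-coding genes tested that had an entry (2.04%). RPL7A held 5. The 27 host genes had a median log2 fold change of -0.048 and the 52 other tested members -0.058, values as close as those of the subunits. The rule did not use this property.

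The genes that make and regulate ribosomes were also described from lists. Of 13 genes in control of ribosomal protein mRNA, 4 were higher (30.8%, against 6.63% of all genes tested) and none lower at the unadjusted threshold, and none passed the adjusted threshold; the median log2 fold change was 0.13. MYC, a transcription factor of ribosome genes, measured 11.6, 11.9 and 11.8 FPKM with the agomir against 10.1, 10.5 and 10.8 FPKM with the agomir NC, and its log2 fold change was 0.16 (SE 0.059, adjusted p 0.381 in limma). TSC1, an inhibitor of mTORC1, gave 0.19 (SE 0.072), RPS6KB1, the S6 kinase, 0.22 (SE 0.088), and MTOR 0.15 (SE 0.065). Without agomir NC replicate 2 the value of RPS6KB1 was 0.12, and it did not pass the unadjusted threshold. The 4 genes thus include an inhibitor and activators of the same pathway. Without agomir replicate 2 the count was 1, and without agomir replicate 3 it was 2, against 4.47% and 5.24% of all genes tested. Quantile and cyclic loess normalization each left 2, against 5.60% and 5.29%.

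Of 57 genes of ribosome biogenesis, 5 were higher and 2 lower at the unadjusted threshold, none passed the adjusted threshold, and the median was 0.030. Against 6.63% and 4.31% of all genes, these counts were near the background. EMG1, a small subunit rRNA methyltransferase, measured 24.6, 27.7 and 23.7 FPKM with the agomir against 22.7, 17.1 and 21.2 FPKM with the agomir NC, and its log2 fold change was 0.32 (SE 0.10). NOB1, the nuclease that finishes the 3′ end of 18S rRNA, gave 0.22 (SE 0.069), and GRWD1, BYSL and MYBBP1A gave 0.23, 0.29 and 0.18. BYSL was 0.19 without agomir NC replicate 2 and MYBBP1A 0.11 without agomir NC replicate 3, and neither then passed the unadjusted threshold. The lower genes were PES1, of large subunit assembly, at -0.12 (SE 0.046) and SBDS, which frees the large subunit for joining, at -0.096 (SE 0.039). Without agomir NC replicate 1 the higher count was 9 of 57, above the background of 6.68% of all genes tested. It was 3 without agomir NC replicate 2, against 5.28%. The lower count was 1 whenever agomir replicate 1 or 3 or any agomir NC replicate was left out, against 3.08% to 4.80%. The 12 genes of translation elongation and related abundant mRNAs had a median of -0.015, and none was lower. Of them, 1 was higher (8.33%, against 6.63% of all genes tested). That gene was EEF1D, an exchange factor subunit, at 0.13 (SE 0.049), while EEF1A1, the tRNA carrier, gave -0.087 (SE 0.057). RPS6KB1, MTOR, GRWD1, BYSL, MYBBP1A, PES1 and SBDS were singled out with their values already in view. The list of mitochondrially encoded mRNAs had no gene in the table under its symbols.

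The cell type lists gave a background for these values. Of 9 tested genes of preadipocytes and mesenchymal cells, none was higher and 1 was lower (11.1%, against 4.31% of all genes tested). That gene was DCN, a collagen-binding proteoglycan, at -0.12 (SE 0.043). DCN passed the unadjusted threshold in 12 of the 18 other settings. It did not pass without agomir replicate 1 (-0.11) or agomir replicate 3 (-0.12), without a filter on low values, without the variance trend, after cyclic loess normalization (-0.052) or after quantile normalization, where the group means were equal. Quantile normalization sets values by rank alone, so that last loss says little of the stability of DCN. Of 5 tested genes of mature adipocytes, 1 was higher and 1 lower (20% each, against 6.63% and 4.31% of all genes tested). PPARG, the master regulator of fat cell formation, was higher at 0.23 (SE 0.090), from 2.96 to 3.99 FPKM. FABP4, a fatty acid carrier, was lower at -0.49 (SE 0.17). It measured 1.82, 2.33 and 1.54 FPKM with the agomir against 3.57, 2.21 and 2.88 FPKM with the agomir NC. PPARG passed the unadjusted threshold in 13 of the 18 other settings and lost it without agomir replicate 1 or 3 or agomir NC replicate 3, without the pair of libraries and with the span trend removed, and FABP4 passed in 16 and lost it without agomir replicate 3 or agomir NC replicate 1. None of these 3 passed the adjusted threshold. Few genes of the other lists were tested: 2 of 7 endothelial, 2 of 7 immune, 3 of 6 pericyte and smooth muscle and 1 of 4 Schwann. None of those tested passed the unadjusted threshold, against 6.63% higher and 4.31% lower of all genes tested. So few genes say little of these lists. EMCN and CLDN5 of endothelium were at 0. ACTA2, the most abundant gene of the pericyte and smooth muscle list, lay between 196 and 219.5 FPKM. The immune list summed to between 7.32 and 8.74 FPKM per library, with CD14 as its most abundant gene, and the endothelial list to between 3.77 and 4.54 FPKM.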

How the data were processed

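RNA was measured in 3 libraries of the bta-miR-484 agomir and 3 of the agomir NC, grouped by the treatment label. The authors deposited FPKM per gene and library. The submitters' processing notes name fastp, HISAT2, StringTie and ARS-UCD1.2 without version or role, and the annotation is not given in the sources used here. Counts were not used here, so depth is unknown. FPKM is relative to the mapped fragments of a library.

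Genes averaging 0.5 FPKM or more were compared as log2(FPKM + 0.5) with limma (version 3.58.1 in R 4.3.3), with a variance trend, two-sided, and Benjamini-Hochberg adjustment over all 12422 genes tested. The code was tested on simulated data. An exact permutation test over the 20 labelings was run on single values, with 0.1 as its smallest two-sided p.

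The members and lists were chosen with earlier results of these data known. Named genes were the members past an adjusted p of 0.05, the 5 highest and the 5 lowest tested members, the 6 largest rises and falls, members named for their roles, the paralogs with their parents, FAU and RACK1, and the 2 genes of lowest p of each other list; any other gene was chosen with its values in view. The alternatives were pseudocounts of 0.1 and 1, no filter on low values or a limit of 1 FPKM, median-ratio scaling, quantile and cyclic loess normalization, removal of the trend with gene span, no variance trend, array weights, a block for replicate number and each library left out. Leaving out 2 libraries together was added after seeing the data. RefSeq (ARS-UCD2.0) gave spans and snoRNA genes, and all 81 members had an entry. Promoter and protein sequences were not analysed here, and some results under the rule for named genes are not reported here.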

Additional observations from a re-analysis of the deposited data

How the results depend on the processing

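No member passed an adjusted p of 0.05 in any of the 18 alternatives. The number of higher members, 1 as reported, was 0 under median-ratio scaling and 0 without the variance trend. The shares of all genes tested were 5.29% and 6.12%. It was 3 (3.80%) after quantile normalization, against 5.60%. It was also 3 with agomir replicate 2 and agomir NC replicate 3 left out together, against 4.71%. With each library left out it was 0 to 1 (1.27%), against 4.47% to 6.68%. The number of lower members, 0 as reported, was 2 under median-ratio scaling (RPL23A and RPS23) and 0 to 12 with each library left out. The number of members below 0, 69 as reported, was 75 under median-ratio scaling and 45 after quantile normalization. It was 45 after cyclic loess normalization and 25 with the pair of libraries left out. In that order, the shares of all genes tested below 0 were 50.9%, 49.0%, 50.3% and 45.8%. Leaving out that pair by its construction moves the members upward. With that pair left out, the median log2 fold change was 0.025 for all members, 0.035 for the large and 0.011 for the small subunit. Of 57 ribosome biogenesis genes, 5 higher became 3 to 9 with each library left out, against 4.47% to 6.68% of all genes tested. Without the pair there were 3, against 4.71%. The 2 lower became 4 under median-ratio scaling, quantile and cyclic loess normalization and removal of the span trend, against 5.06% to 5.75%. They became 1 without the pair, against 2.93%, and 1 to 2 with each library left out, against 3.08% to 4.80%. Of 13 genes in control of ribosomal protein mRNA, 4 higher became 2 after quantile or cyclic loess normalization and removal of the span trend. These stood against 5.60%, 5.29% and 5.69% of all genes tested. They became 1 without the pair, against 4.71%, and 1 to 4 with each library left out, against 4.47% to 6.68%. Fewer libraries were tested where some were left out; otherwise the cause was not tested.

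Libraries with the same replicate number did not deviate together (correlations of -0.051, 0.053 and 0.039). With a replicate block, 0 members were higher, 5 were lower (RPL26, RPL26L1, RPL32, RPLP1 and RPS29), and 0 ribosome biogenesis genes were lower.

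No named gene passed an adjusted p of 0.05 in any setting (lowest 0.226), so that threshold says nothing of stability. At the unadjusted threshold, the 17 named genes that passed it as reported passed in 225 of 306 alternative values and lost it in 81. Each loss count is of 18: RPL7L1 and MTOR 10, MYBBP1A 8, SBDS and RPS6KB1 7, PES1 and DCN 6, PPARG 5, TSC1, MYC and ZMAT3 4, EEF1D and BYSL 3, FABP4 2, NOB1 and GRWD1 1, and EMG1 0. The count of DCN includes quantile normalization, which sets values by rank alone and gave it equal group means. The other 49 named genes passed in 38 of 881 values, spread over 23 genes. RPS28, which did not pass as reported (-0.13), passed with the opposite sign with the pair left out (0.099). The pair was chosen after seeing the data and held the lowest agomir and the highest agomir NC value of RPS28. Leaving it out therefore moves the value upward by construction, and the reversal says nothing of a direction. A further 89 values of 33 genes changed sign where neither value passed the unadjusted threshold. The unknown depth limits all values, those of RPL3L and RPL10L included.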
